A study of Mus musculus with 4 samples.

Results

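Atf4, the transcription factor of amino acid stress, its targets, the endoplasmic reticulum chaperone Hspa5 with its regulator Xbp1, and the mTORC1 inhibitor Ddit4 were followed through mouse bone marrow cultures. The 10 genes, of 12393 with a probe set of their own, were chosen by name, with earlier results of these data known. Every probe set annotated to exactly 1 of them was taken, which gave 18 of the 22626 probe sets tested. They were kept in 3 groups: an Atf4 branch of 7 genes and 11 probe sets (Atf4, Atf3, Ddit3, Chac1, Asns, Sesn2 and Slc7a11), a chaperone branch of 2 genes and 6 probe sets (Hspa5 and Xbp1), and Ddit4 with 1 probe set. All cells came from Mll-AF4stop knock-in mice, in which a fusion of Mll (Kmt2a) and AF4 (Aff1) is held silent by a stop element that Cre recombinase removes. The mice had received 5-FU, a drug that kills dividing cells, and marrow taken 5 days later was infected in the dish. Cre-GFP cells received a retrovirus with Cre and GFP, and control cells a GFP retrovirus (MIG). Cells bearing GFP were sorted on day 2 of infection and grown for 14 days with cytokines that favour lymphoid progenitors, and 20 ng of total RNA was amplified for each Affymetrix array. Each group had 2 arrays, named Cre-GFP 1, Cre-GFP 2, control 1 and control 2 here. In its design text the series calls the control virus MIG-Cre, against the sample labels, which were followed here; against a GFP control, active fusion and Cre itself cannot be told apart. The labels give no age and leave unsaid whether arrays within a group had different donor mice, so p-values measure only how far these arrays spread, and that spread may be technical.

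Amino acid shortage, unfolded protein in the endoplasmic reticulum (ER), viral RNA and lack of heme are each sensed by a kinase of the initiation factor eIF2. Its phosphorylation lowers protein synthesis in general but raises translation of Atf4, which then switches on genes for amino acid supply, redox balance and, through Ddit3 and Chac1, cell death. Because that first step is translational, Atf4 messenger RNA need not move with Atf4 activity. The ER has further sensors: Ire1 splices Xbp1 messenger RNA, and Atf6 drives Hspa5 and other chaperones. Ddit4 (Redd1) is induced by Atf4, but also by glucocorticoids, low oxygen and p53, and restrains mTORC1, the kinase that couples nutrients to growth.

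The elements through which Atf4 and the ER sensors act are short runs of DNA, and windows before the starts of 6 genes show where their letters occur. RefSeq promoters (GRCm38.p6) were found for all 10 genes, and the 250 bases before each start were searched on both strands. The core of the C/EBP-ATF element, to which Atf4 binds with C/EBP partners, was searched as TGATGNAA. It occurred in 4 of the 10 (Asns, Atf3, Chac1 and Slc7a11) and in 3.45% of 32851 RefSeq promoters of that length. The ER stress element, searched as CCAAT and CCACG with 9 unset bases between them, occurred only in Hspa5 among the 10 and in 0.113% of all promoters. Each window ends at the base before the start, and capitals mark the match.
Chac1 (chr2:119351002-119351241, plus strand): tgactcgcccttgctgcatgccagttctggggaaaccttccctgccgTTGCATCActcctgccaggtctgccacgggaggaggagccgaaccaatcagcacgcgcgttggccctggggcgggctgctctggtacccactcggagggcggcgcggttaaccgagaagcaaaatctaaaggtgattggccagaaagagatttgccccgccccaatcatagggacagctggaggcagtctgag
Asns (chr6:7693210-7693329, minus strand): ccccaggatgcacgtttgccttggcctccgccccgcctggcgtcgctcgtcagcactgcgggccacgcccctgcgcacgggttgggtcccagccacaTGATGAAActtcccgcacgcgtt
Slc7a11 (chr3:50443614-50443733, minus strand): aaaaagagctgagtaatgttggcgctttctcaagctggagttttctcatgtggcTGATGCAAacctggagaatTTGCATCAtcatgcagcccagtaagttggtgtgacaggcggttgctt
Atf3 (chr1:191183334-191183503, minus strand): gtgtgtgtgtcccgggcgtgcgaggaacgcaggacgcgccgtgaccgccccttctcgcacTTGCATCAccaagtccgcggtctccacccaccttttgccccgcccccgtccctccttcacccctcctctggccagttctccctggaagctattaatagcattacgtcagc
Hspa5 (chr2:34771940-34772089, plus strand): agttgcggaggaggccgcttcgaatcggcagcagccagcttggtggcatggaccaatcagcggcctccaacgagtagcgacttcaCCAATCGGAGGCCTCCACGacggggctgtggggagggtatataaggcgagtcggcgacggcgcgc
Ddit4 (chr10:59951771-59951970, minus strand): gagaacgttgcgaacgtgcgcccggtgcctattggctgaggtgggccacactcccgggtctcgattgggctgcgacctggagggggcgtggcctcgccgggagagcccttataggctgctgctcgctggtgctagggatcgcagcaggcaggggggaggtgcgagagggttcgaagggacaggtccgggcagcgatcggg
The match in Chac1 begins 193 bases before the start, that in Atf3 110 and that in Asns 23 bases before it. In Chac1 and Atf3 the capitals read TTGCATCA, the element on the opposite strand. Slc7a11 holds 2 matches, 66 and 47 bases before its start, on opposite strands. The Ddit4 window is shown as an example without a match, since neither set of letters occurs in its 250 bases. Atf4, Ddit3, Sesn2 and Xbp1 likewise had no match, so the absence was not particular to Ddit4. A match of letters does not show that a factor bound there in these cells.

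Values are log2 intensities after RMA, a summary of the probes of each probe set, and a difference is always Cre-GFP minus control. Over the whole table, 0 of 22626 probe sets (0.0%) passed limma's test at an adjusted p of 0.05, while 1088 (4.81%) had an unadjusted p under it. An ordinary two-sample test without limma's pooling of variance called 1. The 18 probe sets of the 10 genes likewise gave 0 calls. Of these 18, 2 had an unadjusted p under 0.05 (Ddit4 and Chac1, both lower in Cre-GFP), beside 2.4% of all probe sets lower by that rule. Both Cre-GFP arrays lay below both control arrays for 2 of the 18, beside 14.7% of all probe sets, and above them for 2 (both Xbp1), beside 15.2%. By sign alone 10 of the 18 were lower, beside 49.8%. The shares without overlap and by sign are near or under those of the whole table, so separation of the arrays alone says little here. The 2 at an unadjusted p under 0.05 in limma are a larger share than that of all probe sets. The members were chosen with earlier results of these data known, so no conclusion is drawn from that share. All 18 stood above the 20th percentile of intensity on every array. The median 95% interval of a difference reached 0.37 to either side, so shifts smaller than that were mostly beyond what 4 arrays can resolve.

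**Figure D1:**
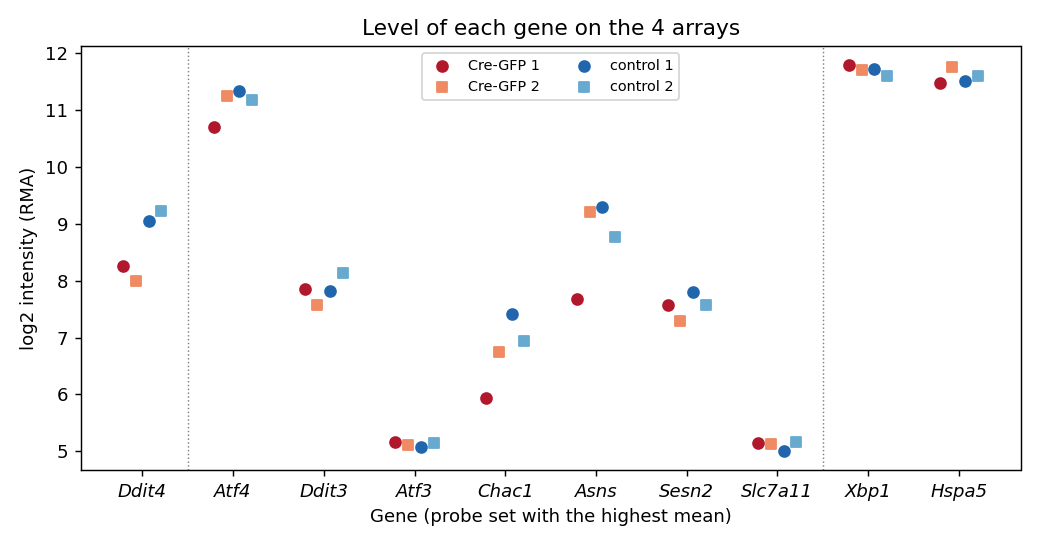
Log2 intensity (RMA, vertical axis) of the 10 genes on the 4 arrays, with 1 point per array and, for each gene, the probe set with the highest mean; dotted lines separate Ddit4, the Atf4 branch and the chaperone branch. Ddit4 reads 8.25 and 7.999 in Cre-GFP against 9.04 and 9.23 in control, and for Asns Cre-GFP 1 stands alone at 7.68. Heights of different genes come from different probes and are not compared.

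Ddit4 was the member with the widest separation of the groups. It read 8.25 and 7.999 in the Cre-GFP arrays against 9.04 and 9.23 in the controls. Both Cre-GFP arrays were low and both control arrays high, and the gap between the groups was wider than the gap inside either. The difference was −1.01 ± 0.18 (SE, n = 2 per group), or 2.02-fold lower with a 95% interval of 1.47- to 2.76-fold. In limma its unadjusted p was 0.0016, which ranked 70th of all probe sets, and its adjusted p was 0.52, past no threshold. Leaving out each array in turn gave differences from −1.14 to −0.88. On a single probe set no second measurement of Ddit4 stands beside it.

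B lineage markers moved in the same direction on these arrays. All 8 measured markers of 9 listed (Cd79a, Cd79b, Pax5, Ebf1, Vpreb1, Igll1, Blnk and Pou2af1) had lower means in Cre-GFP, and 6 of the 8 did not overlap, beside 14.9% of all genes that were lower without overlap. The log2 of their summed intensity was 14.84 and 14.85 (Cre-GFP) against 15.12 and 15.28 (control). Monocyte and macrophage markers summed to 11.16 and 10.61 (Cre-GFP) against 9.84 and 10.42 (control), with 6 of 7 higher in Cre-GFP by their means. Neutrophil markers overlapped as a sum, at 11.75 and 12.01 against 10.35 and 12.30. By their means 6 of 7 were higher in Cre-GFP and 1 was lower. Of the 7, 2 (Mpo and Elane) were higher without overlap, beside 15.2% of all genes. Mpo read 7.32 and 7.32 (Cre-GFP) against 6.21 and 5.93 (control). The part of this shift in the Ddit4 result was not tested. In bulk RNA, fewer cells of a type and less RNA per cell cannot be told apart.

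As blood cells the cultures read as labelled. Ptprc, the surface phosphatase CD45 of white blood cells, lay between 9.56 and 9.98 on the 4 arrays, and the pre-B receptor chains Igll1 and Vpreb1 between 13.28 and 13.83. Of the T lineage markers 3 of 6, and of the stroma and endothelium markers 3 of 5, lay under the 20th percentile on every array. No marker can read 0 on this scale.

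The regulators of the Atf4 branch differed little between the groups. Atf4 itself was read by 3 probe sets. The brightest (1438992_x_at) read 10.70 and 11.24 (Cre-GFP) against 11.34 and 11.17 (control), with Cre-GFP 1 lowest and the groups overlapping. Its difference was −0.29 ± 0.22. The next (1448135_at) read 10.45 and 10.53 against 10.58 and 10.48, a difference of −0.04 ± 0.15, and the dimmest (1439258_at) differed by −0.07 ± 0.14. Cre-GFP 1 was the lowest array on the first, but only by a small margin on the second, and without that array the brightest differed by −0.02.

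Ddit3 (Chop), the stress factor that Atf4 induces, read 7.85 and 7.57 (Cre-GFP) against 7.82 and 8.13 (control). Cre-GFP 2 was lowest and control 2 highest, and Cre-GFP 1 stood between the controls, so the groups overlapped. The difference was −0.27 ± 0.19, with a 95% interval from −0.75 to 0.21. Atf3, a repressor induced early in many stresses, read 5.16 and 5.11 against 5.08 and 5.15, with the groups overlapping. Its difference of 0.02 ± 0.10 changed sign when Cre-GFP 1 or control 1 was left out. Atf3 was dim, at the 27th percentile of all probe sets.

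Of the Atf4 targets, Chac1, an enzyme that degrades glutathione, stood apart most. It read 5.94 and 6.75 in the Cre-GFP arrays against 7.41 and 6.93 in the controls. Both Cre-GFP arrays lay under both control arrays, but Cre-GFP 2 lay nearer to control 2 than to its own partner. The difference was −0.83 ± 0.30 (limma, n = 2 per group), or 1.78-fold lower with a 95% interval of 1.06- to 2.97-fold. Its unadjusted p in limma was 0.034 and its adjusted p 0.97. The unadjusted p was 0.069 with the replicate number as a block in limma and 0.22 by the ordinary two-sample test, so it did not stay under 0.05. The size rested on single arrays: it was −0.42 if Cre-GFP 1 was left out, −1.23 if Cre-GFP 2 was, −0.59 if control 1 was and −1.07 if control 2 was.

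Asns, the enzyme that makes asparagine and a standard readout of amino acid shortage, showed a different pattern. Its brighter probe set (1451095_at) read 7.68 and 9.20 (Cre-GFP) against 9.29 and 8.77 (control). The other (1433966_x_at) read 7.18 and 9.10 against 9.24 and 8.39. On both, Cre-GFP 1 was far below the other 3 arrays, while Cre-GFP 2 lay between the controls. The difference of −0.59 ± 0.49 on the brighter probe set had a 95% interval from −1.80 to 0.62. Without Cre-GFP 1 it turned to 0.17, and without Cre-GFP 2 it was −1.35. Asns thus did not separate the groups; it separated 1 array from its partner.

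The last pair of targets gave small differences. Sesn2, a leucine sensor that inhibits mTORC1, read 7.58 and 7.29 (Cre-GFP) against 7.79 and 7.58 (control) on its brighter probe set (−0.25 ± 0.18). On the other it read 6.42 and 6.16 against 6.49 and 6.13 (−0.02 ± 0.17). Slc7a11, the cystine importer, was dim, at the 26th percentile, and read 5.15 and 5.13 against 5.01 and 5.17. Its difference was 0.05 ± 0.11, with a 95% interval from −0.21 to 0.32, although its promoter holds 2 of the element cores shown above.

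The chaperone branch gave no difference that these arrays resolve. All 6 of its probe sets had a higher mean in Cre-GFP, by 0.06 to 0.32, and 0 had an unadjusted p under 0.05 in limma. Hspa5 (BiP), the main chaperone of the ER lumen, read 11.47 and 11.76 (Cre-GFP) against 11.51 and 11.60 (control), a difference of 0.06 ± 0.16. Its second probe set read 8.12 and 8.57 against 8.07 and 8.47, a difference of 0.07 ± 0.23. On both probe sets the groups overlapped. The 95% interval of the brighter probe set ran from −0.33 to 0.44, so a change as large as that of Ddit4 lay outside it.

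Xbp1, the factor spliced by Ire1 and needed for plasma cells, was read by 4 probe sets that differed by 0.07 to 0.32. The brightest (1437223_s_at) read 11.79 and 11.70 (Cre-GFP) against 11.72 and 11.59 (control), with overlap and a difference of 0.09 ± 0.14. On 1420886_a_at it read 9.92 and 9.94 against 9.42 and 9.80 (0.32 ± 0.19), and on 1420011_s_at 8.70 and 8.70 against 8.65 and 8.54 (0.10 ± 0.16). These 2 were higher in both Cre-GFP arrays, and limma's unadjusted p was 0.15 and 0.56. Array intensity of a whole messenger does not tell spliced from unspliced Xbp1. The 4 plasma cell markers summed to 9.23 and 9.07 (Cre-GFP) against 9.09 and 8.55 (control), and their part in the Xbp1 values was not tested.

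**Figure D2:**
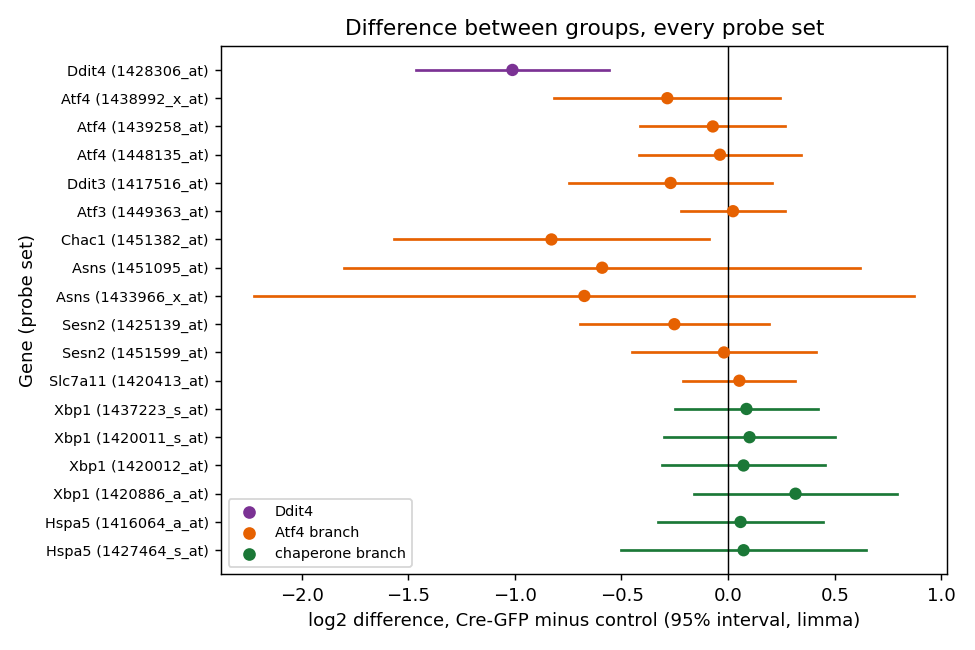
Log2 difference between Cre-GFP and control (horizontal axis) for all 18 probe sets, with points for the difference and bars for limma's 95% interval (2 arrays per group). The bars of Ddit4 and Chac1 lie wholly below 0, those of Asns are the longest, and every point of the chaperone branch lies between 0.06 and 0.32.

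Set side by side on the probe set with the highest mean of each gene, the branches had different medians. The Atf4 branch had a median difference of −0.27 (5 of 7 genes lower, beside 49.9% of all genes), the chaperone branch 0.07 (0 of 2 lower) and Ddit4 −1.01, beside a median of 0.00 over all probe sets. The Atf4 branch median was −0.015 without Cre-GFP 1 and −0.14 with the probe sets of each gene averaged. Within arrays, the log2 ratio of Ddit4 to Hspa5, centred on its mean, was −0.26 and −0.81 (Cre-GFP) against 0.48 and 0.59 (control), with no overlap. The ratio of Chac1 to Hspa5 was −0.71 and −0.18 against 0.72 and 0.16. The ratio of Ddit4 to Chac1 overlapped, at 0.44 and −0.62 against −0.24 and 0.42, as did that of Ddit4 to Asns. In an exact two-sided permutation test over the 4 arrays the first 2 ratios gave p = 0.333, the smallest this design allows, and p = 0.833 after adjustment over the 5 ratios examined. So these data do not resolve whether Ddit4 and Chac1 differed from each other in response.

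Asns and Chac1 also varied widely between the 2 Cre-GFP arrays. The log2 level of Cre-GFP 1 minus that of Cre-GFP 2 was −1.52 for Asns and −0.81 for Chac1, gaps larger than those of 99.9% and 98.5% of 12393 genes. Ddit4 went the other way, 0.26 higher in Cre-GFP 1. Asns and Chac1 also varied between the controls, where control 1 minus control 2 was 0.52 and 0.47. These control gaps were larger than those of 92.1% and 90.3% of genes. The list of amino acid transport and synthesis genes, many of them known Atf4 targets, had 8 of 20 measured genes lowest in Cre-GFP 1, beside 20.4% of all genes. Control 2 was the lowest array for more than 8 of the 20, beside 27.6% of all genes. Of the 20, 7 were among the 5% of genes with the widest gap in Cre-GFP and lower in Cre-GFP 1, beside 3.14% of all genes; none of the 20 was that far higher in it. The list varied inside control too, with 4 of the 20 (Slc1a4, Gpt2, Slc1a5 and Cth) among the 5% of genes with the widest gap between the control arrays. Cre-GFP 1 was also the lowest array for 9 of 20 genes of the Ire1 and Atf6 arms, 6 of 12 glutathione and NRF2 genes and 6 of 12 hypoxia genes. Most of these genes, though not all, were also lower in control 1 than in control 2. For Asns and Chac1 control 1 was instead the higher control array. Low values in those lists were thus not all particular to Cre-GFP 1. In the remaining lists Cre-GFP 1 was lowest for 4 of 13 other genes of the eIF2 arm. Among aminoacyl-tRNA synthetases with the tRNA exporter it was lowest for 3 of 13. It was lowest for only 2 of 16 mTORC1 genes, 1 of 18 other ER chaperones and 0 of 14 glucocorticoid and FoxO genes. The 7, and those 4, are named here after their values were seen.

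Slc7a5, the large neutral amino acid transporter, read 8.66 and 9.81 (Cre-GFP) against 9.10 and 8.91 (control). Its partner chain Slc3a2 read 9.52 and 10.17 against 9.86 and 10.002. Psph, the last enzyme of serine synthesis, read 7.81 and 8.99 against 8.88 and 8.63. In these 3 genes Cre-GFP 1 was the lowest array and Cre-GFP 2 the highest. Mthfd2, a mitochondrial folate enzyme, read 10.21 and 10.85 against 10.86 and 10.67, and Eif4ebp1, a translation repressor acted on by mTORC1, 11.61 and 12.32 against 12.06 and 11.96. Slc1a4 and Gpt2, a neutral amino acid transporter and an alanine aminotransferase, were low in both Cre-GFP 1 and control 2 (Slc1a4 at 7.16 and 6.86, Gpt2 at 5.77 and 5.10) and higher in the other 2 arrays. Other probe sets repeated the gap only in part. Cre-GFP 1 minus Cre-GFP 2 was −0.64 and −0.03 on the other probe sets of Eif4ebp1, −0.25 and −0.04 on those of Gpt2, and 0.03 and −0.05 on those of Slc1a4. The second Mthfd2 probe set gave −1.12 in Cre-GFP and likewise −1.12 for control 1 minus control 2, so its gap was not particular to Cre-GFP.

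**Figure D3:**
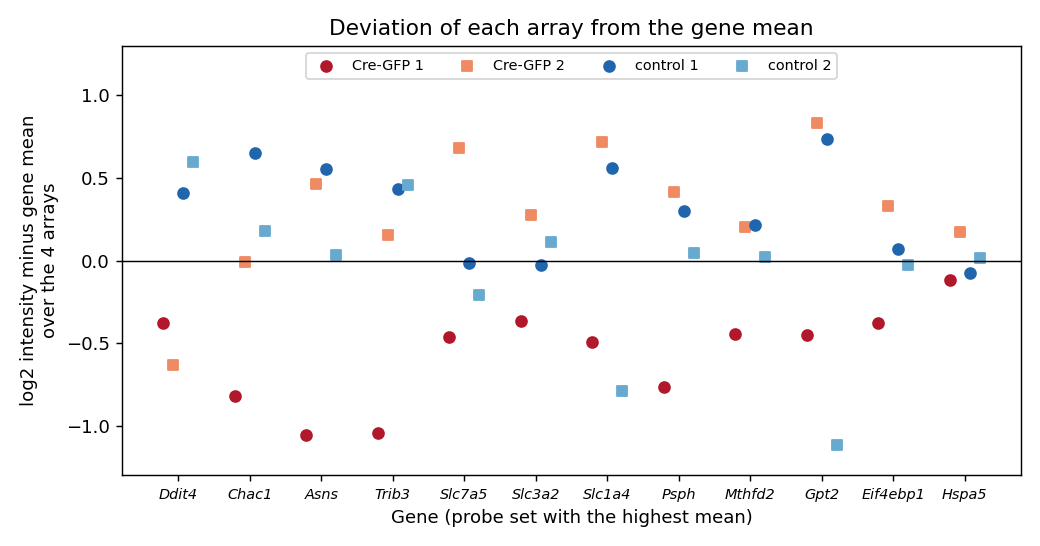
Log2 intensity of each array minus the gene's mean over the 4 arrays (vertical axis) for Ddit4, Chac1, Asns, Trib3, the 7 amino acid genes with wide gaps, and Hspa5, with 1 point per array. Cre-GFP 1 lies at −1.05 for Asns and −1.04 for Trib3 while Cre-GFP 2 lies at 0.46 and 0.16; for Ddit4 both Cre-GFP arrays lie below both controls.

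Markers of the cell types listed also differed between the 2 Cre-GFP arrays. Monocyte and macrophage markers summed to 11.16 in Cre-GFP 1 and 10.61 in Cre-GFP 2. Mast cell and basophil markers summed to 8.996 and 9.67, a gap carried by Kit, at 8.01 and 9.11. The others of that list differed little: Cpa3 read 6.67 and 6.82, Tpsb2 6.57 and 6.55, Mcpt8 5.31 and 5.40, and the dim Fcer1a 4.07 and 3.83. A difference in mast cells or basophils is thus not shown. Neutrophil markers summed to 11.75 and 12.01. B lineage markers had nearly the same sum, at 14.84 and 14.85, which the bright Igll1 and Vpreb1 carry, but some differed widely, with Cd79b at 9.72 and 8.60 and Pou2af1 at 9.74 and 8.16. Their part in the spread of Asns and Chac1 was not tested.

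List counts below use the probe set with the highest mean of each gene. Other genes of the eIF2 arm, from a list of 14 with 13 measured, gave 0 of 13 with an unadjusted p under 0.05 in either direction (limma), beside 4.62% of all genes, and a median difference of −0.06. Trib3, a pseudokinase that Atf4 and Ddit3 induce and that damps Atf4, came nearest. It read 7.84 and 9.04 (Cre-GFP) against 9.32 and 9.34 (control) (−0.89 ± 0.38, limma's unadjusted p = 0.060). Cre-GFP 1 was again far below its partner, the difference was −0.29 without it, and a second Trib3 probe set differed by −0.04. Cebpb, a C/EBP factor that partners Atf4, differed by 0.41 ± 0.18 (−0.07 on its dim second probe set) and Eif2ak4 (Gcn2), the kinase that senses uncharged tRNA, by −0.27 ± 0.12.

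The 20 amino acid genes also gave 0 with an unadjusted p under 0.05 in limma, with 12 higher, 8 lower and a median of 0.01. The 3 with the smallest p were Phgdh, Shmt2 and Aldh18a1. Phgdh, the first enzyme of serine synthesis, read 12.67 and 12.60 (Cre-GFP) against 12.47 and 12.25 (control) (0.28 ± 0.13, and 0.22 to 0.37 on its other probe sets, of which 2 had an unadjusted p of 0.030 and 0.038 in limma). The later serine enzymes Psat1 and Psph had differences of the other sign, −0.24 ± 0.18 and −0.35 ± 0.38. Both are named after their values were seen. Shmt2, which interconverts serine and glycine, differed by 0.35 ± 0.19 and Aldh18a1, of proline synthesis, by 0.31 ± 0.20, and both ranged over their other probe sets, from 0.04 to 0.52 and from −0.03 to 0.24. Aminoacyl-tRNA synthetases and the tRNA exporter, which Atf4 also drives, had 13 genes measured. Of these 13, 9 were higher and 4 lower, beside 49.9% of all genes lower. The median was 0.13, and 0 had an unadjusted p under 0.05 in limma. Centred on each gene's mean, their median level was 0.02 in both Cre-GFP arrays, 0.01 in control 1 and −0.15 in control 2. The higher values thus rest largely on 1 low control array. Xpot, the tRNA exporter, differed by 0.24 ± 0.19, Vars by 0.33 ± 0.31 (−0.02 to 0.67 when single arrays were left out) and Cars by 0.16 ± 0.16.

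Of 18 other ER chaperones and folding enzymes, 12 were higher and 6 lower (beside 49.9% of all genes lower), and the median was 0.03. In limma 1 had an unadjusted p under 0.05 in each direction, beside 2.41% of all genes lower and 2.2% higher. P4hb, a protein disulfide isomerase, read 11.13 and 10.98 (Cre-GFP) against 10.63 and 10.50 (control), with no overlap (0.49 ± 0.16, unadjusted p = 0.020). Ero1b, the oxidase that recharges such isomerases, read 8.63 and 8.26 against 8.95 and 9.48 (−0.77 ± 0.25, unadjusted p = 0.020), but its other probe sets differed by −0.20 and −0.05. Dnajb9, a co-chaperone induced through Xbp1, differed by 0.27 ± 0.20. The 20 measured genes of the Ire1 and Atf6 arms and of ER-associated degradation gave 0 with an unadjusted p under 0.05, 9 higher and 11 lower, and a median of −0.0044. Among them Sec61a1, the channel of the ER membrane, differed by 0.17 ± 0.10, Derl1 by −0.17 ± 0.12 (−0.24 to 0.16 on its other probe sets) and Herpud1 by −0.25 ± 0.22. Both lists had medians as close to 0 as that of Hspa5.

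Ddit4 was set beside the mTORC1 pathway it restrains and beside genes that share its known inducers. Of 16 measured genes of mTORC1 and its inhibitors, 0 had an unadjusted p under 0.05 in limma, 8 were lower and 8 higher, and the median was −0.01. Sesn3, a relative of Sesn2, read 7.53 and 7.67 (Cre-GFP) against 7.77 and 8.28 (control) (−0.42 ± 0.22), while Lamtor1 differed by −0.20 ± 0.12 and the dim Rragd by −0.13 ± 0.10. Of 14 measured genes responsive to glucocorticoids or FoxO factors, 9 were lower, with a median of −0.18. Of these, 2 were lower and 1 higher at an unadjusted p under 0.05, beside 2.41% and 2.2% of all genes.

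Klf2, a FoxO-driven factor of lymphocyte quiescence, read 5.40 and 5.14 (Cre-GFP) against 6.54 and 6.48 (control) (−1.24 ± 0.13, adjusted p = 0.23 in limma). Txnip, which limits glucose uptake, read 8.93 and 8.57 against 10.17 and 9.27 (−0.98 ± 0.32), with −0.53 without control 1 and 0.13 on its dim second probe set. Fkbp5, a chaperone standardly induced by glucocorticoids, went the other way, at 8.56 and 8.69 against 7.48 and 8.21 (0.78 ± 0.27, 0.42 without control 1 and 0.09 on its second probe set). So the lower Ddit4 stood beside lower Klf2 and Txnip and higher Fkbp5, none past the threshold over all probe sets.

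**Figure D4:**
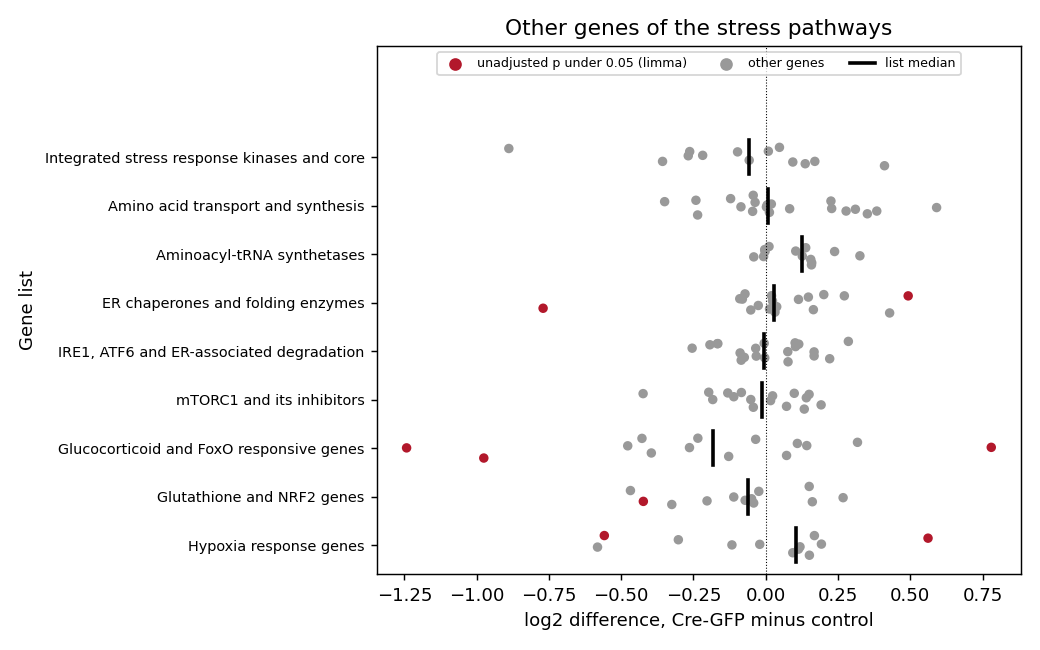
Log2 difference between Cre-GFP and control (horizontal axis) for the measured genes of 9 lists, with 1 point per gene on its probe set with the highest mean; red points have an unadjusted p under 0.05 in limma and black bars mark list medians. Medians run from −0.18 for the glucocorticoid and FoxO genes to 0.13 for the aminoacyl-tRNA synthetases.

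The genes with profiles most like those of single members were found by Euclidean distance between centred log2 profiles over the 4 arrays, among 10294 probe sets with 1 symbol and a mean at or above the median. Nearest to Ddit4 were Traf3ip2, an adaptor of the interleukin-17 receptor (distance 0.11), Rapgef3, a cyclic AMP-activated exchange factor (0.14), Ceacam1, an adhesion receptor (0.19), and Pik3cg, the gamma catalytic subunit of PI3K (0.19). Traf3ip2 read 6.44 and 6.03 (Cre-GFP) against 7.15 and 7.38 (control), and Pik3cg 7.58 and 7.47 against 8.61 and 8.77. Nearest to Chac1 were Zfp148, Impa1, Abi1 and 3110009E18Rik, at larger distances of 0.28 to 0.35. Nearest to Hspa5 were Nudcd3, Eprs, Noc4l and Mob1a, at 0.013 to 0.019, as a nearly level profile has many neighbours. With 4 arrays such likeness is a description of these arrays only.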

How the data were processed

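Total RNA of 4 mouse bone marrow cultures was amplified with a NuGen Ovation kit and hybridized to Affymetrix arrays, per the labels. The authors deposited 1 table of RMA intensity values on a linear scale, per the submitters' processing notes, which name no version. Since RMA gives every array close to 1 distribution, a change common to most genes is hidden, and folds of dim genes come out too small. Median intensities were 85.1 to 87.7. The number of arrays limits the precision. Values were put on the log2 scale and compared per probe set by a linear model with empirical Bayes moderation and a variance trend on intensity (limma 3.58.1, R 4.3.3; two-sided tests). P-values were adjusted by Benjamini and Hochberg's method across the 22626 probe sets that are not controls. The platform annotation gave 1 symbol to 20380 of these, several to 691 and none to 1555; gene numbers of 20351 were in RefSeq (GRCm38.p6), and 0 symbols needed a change. For gene counts, the probe set with the highest mean stood for each of 12393 genes. The script was tested on simulated data.

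Members, gene lists and markers were chosen with earlier results of these data known. Named were all members, the 3 genes per list with the smallest unadjusted p, and the 4 genes most like Ddit4, Chac1 and Hspa5; others are marked as chosen after their values were seen. List genes that the tables used here do not name were not analysed. Errors after ± are limma's standard errors. Alternatives left out single arrays or dim or shared probe sets, changed the moderation, scaling, floor or gene summary, or used the replicate number as a block.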

Additional observations from a re-analysis of the deposited data

How the results depend on the processing

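Over the 13 alternatives, the differences of Ddit4, Chac1, Atf4, Ddit3, Sesn2 and Xbp1 kept their sign on the brightest probe set of each gene, and 0 of the member probe sets passed in any. When single arrays were left out, Ddit4 ranged from −1.14 to −0.88, the Atf4 branch median from −0.36 to −0.015, Asns from −1.35 to 0.17, Atf3 from −0.011 to 0.057, Hspa5 from −0.086 to 0.20 and Slc7a11 from −0.029 to 0.13. With the mean of all probe sets of a gene, the Atf4 branch median was −0.14. The count of all probe sets past the threshold was 26 without control 1, 1 without control 2 and 0 without either Cre-GFP array; it was 1 by the ordinary two-sample test and 14 with values under the 20th percentile raised to it. Dimmer probe sets with small differences turned sign without single arrays: Atf4 to 0.018 and 0.016, Sesn2 to 0.16, Hspa5 to −0.15 and Xbp1 to −0.012 at most. The dimmer Asns probe set, at −0.67 with all arrays, turned to 0.29 without Cre-GFP 1. The causes were not tested. No label says that the replicate numbers pair the arrays. Yet deviations of the 2 arrays numbered 1 from their group means correlated at 0.36 over all probe sets. Arrays of the same number thus shared part of their variation, and its source was not tested. With the replicate number as a block, 0 probe sets passed, 1715 had an unadjusted p under 0.05 against 1088 without it, and Ddit4 differed by −1.01 (limma's adjusted p = 0.49), while the unadjusted p of Chac1 was 0.069, no longer under 0.05. With the dimmest 40% left out, Atf3 and Slc7a11 were not measured, and Hspa5 gave no value without shared probe sets.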

Other observations

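Other stress genes were examined for the same arrays. Of 12 measured glutathione and NRF2 genes, 9 were lower in Cre-GFP, beside 49.9% of all genes, with a median of −0.06. Nqo1, a quinone reductase driven by NRF2, read 5.41 and 5.20 (Cre-GFP) against 5.72 and 5.74 (control) (−0.42 ± 0.12, unadjusted p = 0.013 in limma, the only 1 of the 12 under 0.05 on its brightest probe set, beside 2.41% of all genes lower). Gclc, the rate-limiting enzyme of glutathione synthesis, differed by −0.47 ± 0.25 (−0.14 without control 2), and Gpx4, which reduces lipid peroxides, by 0.27 ± 0.17 and by 0.57 on its second probe set. Gsr and Chac2 repeated the gap of Asns within Cre-GFP, with Cre-GFP 1 minus Cre-GFP 2 at −0.82 and −0.81 (named after their values were seen). Chac2 was dim, and its value in Cre-GFP 1, 4.44, lay under that array's 20th percentile of 4.76.

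Of 12 measured hypoxia response genes, 7 were higher and 5 lower, with a median of 0.10, and 1 had an unadjusted p under 0.05 in each direction in limma, beside 2.41% of all genes lower and 2.2% higher. Ndrg1, induced by low oxygen and growth arrest, read 9.08 and 9.19 (Cre-GFP) against 8.43 and 8.72 (control) (0.56 ± 0.18, and 0.05 to 0.89 on its other probe sets). Bnip3, a mitochondrial autophagy receptor, read 7.83 and 8.18 against 8.50 and 8.63 (−0.56 ± 0.19). P4ha1, a collagen prolyl hydroxylase, differed by −0.58 ± 0.27, and by −0.18 without control 2. Slc2a1, a glucose transporter named after its values were seen, differed by −0.30 ± 0.18. Both Cre-GFP arrays lay below both controls for 3 of the 12 (Bnip3, P4ha1 and Slc2a1), the direction of Ddit4, and above them for 1 (Ndrg1), beside 14.9% and 15.2% of all genes.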
